A study of Mus musculus with 4 samples.

Results

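Cdkn1a, Mdm2, Ccng1, Phlda3, Btg2, Sesn2, Gadd45a, Gdf15, Trp53inp1 and Bax, a set of p53 target and growth arrest genes, were followed in muscle after injury. They were picked by symbol, and these 10 genes were among 32285 features of the count tables, each with 1 row. Btg2 and Phlda3 lie on chromosome 1, Trp53inp1 and Sesn2 on 4, Gadd45a on 6, Bax on 7, Gdf15 on 8, Mdm2 on 10, Ccng1 on 11 and Cdkn1a on 17. Spatial RNA was captured on fresh frozen tibial muscle of Nse-Bmp4 mice of the C57BL/6 strain, aged 6 to 8 weeks. The groups were uninjured muscle (day 0) and muscle 1, 3 and 7 days after a cardiotoxin injury, with 1 section a day. All 4 groups carried the transgene, in which the rat neuron-specific enolase promoter drives Bmp4, so no section shows muscle without it. The labels say that 3 tibial muscles were mixed for a group, and which of them a section holds is not known here.

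The protein p53 is a transcription factor that is held at a low level by Mdm2, accumulates after DNA damage and other stress, and binds a paired sequence element near its target genes. Its targets include brakes on the cell cycle, genes of cell death, genes that buffer oxidative and metabolic stress, and Mdm2 itself, which closes a feedback loop. Several of them also answer to other signals: Cdkn1a is part of the programme by which myoblasts leave the cell cycle, and Gdf15 and Sesn2 are also targets of the integrated stress response.

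The values were counts of unique molecular identifiers (UMIs) per gene and capture spot, and a level is given as UMIs per 1000000 of the section or group of spots (CPM). The sections had from 2107 to 3032 spots and from 16777832 UMIs (day 1) to 56113066 UMIs (day 3), and the median spot had from 6322 UMIs (day 1) to 21029 UMIs (day 0). Adult myofibre genes, a list of 20, took 29.0%, 15.7%, 9.58% and 17.0% of UMIs on days 0, 1, 3 and 7, and none of the 20 was at 0 in the myofibre-rich spots of any day. Spot barcodes mark positions on the array, and from 1539 to 2311 of them were shared between pairs of sections. With 1 section a day there was no spread between animals and no test. Intervals are exact at 95% and cover counting error only, and a difference of at least 2-fold is called. A spot covers several cells, so a lower level may stand for fewer cells of a type or for less RNA per cell, and these cannot be told apart.

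Over whole sections and by plain totals, 8, 8 and 9 of the 10 genes were above day 0 at days 1, 3 and 7, although 2 of them at day 3 and 5 at day 7 turned under other scalings. Of the 10, 5, 6 and 4 were at least 2-fold above day 0 at days 1, 3 and 7. The background, the share of all features tested that were called, was 15.8% of 12709, 31.9% of 13879 and 29.3% of 13748. At least 2-fold below day 0 were 0, 1 and 0 genes, against 10.4%, 6.77% and 1.42% of features. The median log2 ratio of the 10 genes was 1.11, 1.26 and 0.52 at days 1, 3 and 7, beside 0.16, 0.57 and 0.63 over all features tested. The 3 comparisons share the day 0 section and are not independent.

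**Figure D1:**
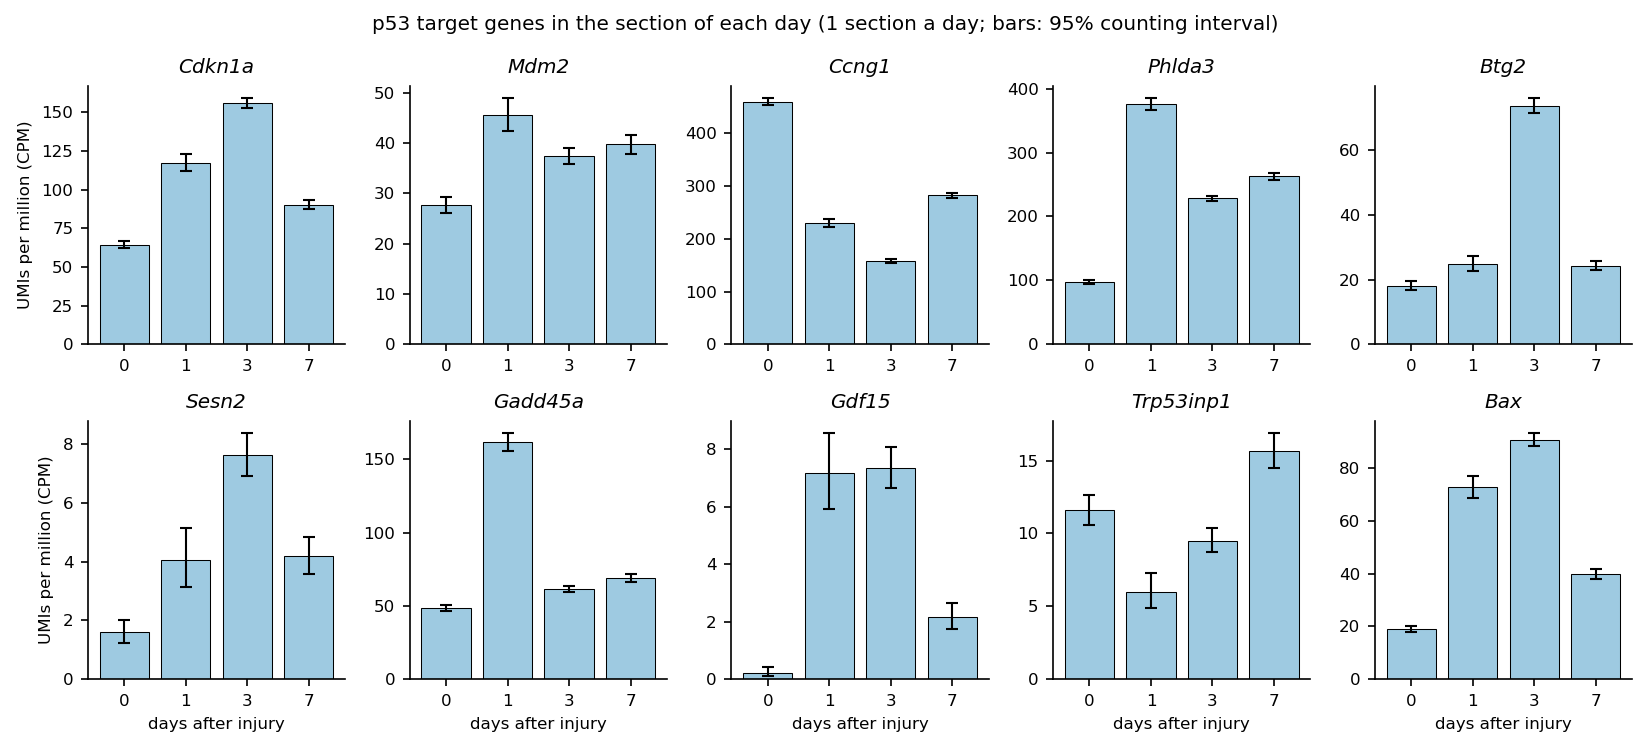
Level of each gene (y axis, UMIs per 1000000 of the section, linear from 0, with a scale of its own in each panel) at days 0, 1, 3 and 7 after injury (x axis). Bars are single sections and error bars the exact 95% Poisson interval. Ccng1 was highest at day 0, Trp53inp1 at day 7, Mdm2, Phlda3 and Gadd45a at day 1, and the other 5 genes at day 3.

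Among the cell cycle inhibitors, Cdkn1a, which encodes the cyclin-dependent kinase inhibitor p21, was at 64.4, 118, 156 and 90.3 CPM on days 0, 1, 3 and 7. No pair of days had overlapping intervals, and the day 3 level was 2.42-fold that of day 0 (2.32 to 2.53). Btg2, an antiproliferative gene and an early response gene, was at 18.2, 24.9, 73.8 and 24.3 CPM on the same days. It stood out at day 3, 4.06-fold above day 0 (3.77 to 4.39), while days 1 and 7 could not be told apart. Gadd45a, a growth arrest and DNA damage gene, was at 48.3, 162, 61.6 and 68.9 CPM. Day 1 alone was past 2-fold, at 3.35 times day 0 (3.16 to 3.54). Ccng1, which encodes cyclin G1, ran the other way. Its levels were 460.0, 230.1, 158 and 282 CPM, and only day 3, at 0.343 of day 0 (0.335 to 0.352), was called, since day 1 stopped just short of 2-fold (0.50027).

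For the feedback regulator Mdm2, the ubiquitin ligase of p53, the levels were 27.7, 45.5, 37.4 and 39.7 CPM at days 0, 1, 3 and 7. None reached 2-fold (the day 1 ratio was 1.65, interval 1.501 to 1.80), and days 3 and 7 overlapped. Phlda3, an inhibitor of Akt signalling, was at 96.9, 375.5, 228 and 263 CPM. It was past 2-fold on every injured day, most at day 1 (3.87-fold, 3.73 to 4.03). Bax, which permeabilises mitochondria in apoptosis, was at 18.9, 72.8, 90.8 and 39.9 CPM. It was likewise past 2-fold on every injured day, with 4.79-fold (4.45 to 5.16) at day 3.

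The stress genes rested on fewer UMIs. Gdf15, a secreted stress cytokine, had 10, 120, 411 and 90 UMIs, or 0.228, 7.15, 7.32 and 2.15 CPM. Its ratio to day 0 was the largest of the 10 on each injured day, at 31.4 (16.5 to 67.1), 32.1 (17.3 to 67.5) and 9.44 (4.90 to 20.4), and days 1 and 3 overlapped. Sesn2, a sestrin that restrains mTORC1, had 70, 68, 428 and 175 UMIs, or 1.60, 4.05, 7.63 and 4.18 CPM. It was called on all injured days, highest at day 3 (4.78-fold, 3.71 to 6.25). Trp53inp1, a p53-induced nuclear protein, was at 11.6, 5.96, 9.50 and 15.6 CPM, lowest at day 1 with 100 UMIs, and no day was past 2-fold.

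The choice of the total matters to these ratios. TMM factors shifted every log2 ratio by -0.21, -0.55 and -0.61 on days 1, 3 and 7, so that at day 3 Mdm2 and Gadd45a, and at day 7 Cdkn1a, Mdm2, Btg2, Gadd45a and Trp53inp1, were below day 0 instead of above it. DESeq2 size factors gave the same signs. A total that leaves out myofibre, mitochondrial and haemoglobin genes (shifts of -0.21, -0.46 and -0.31) turned Mdm2 and Gadd45a at day 3 as well. Under all 3 scalings Bax, Btg2, Sesn2 and Gdf15 were still at least 2-fold higher at day 3, and under TMM and DESeq2 factors Gdf15 alone was so at day 7.

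Promoter windows are shown for the genes whose window comes closest to the p53 response element, a pair of decamers with 0 to 13 bases between them. The windows run from 250 bases before to 50 bases after the gene start and come from RefSeq (GRCm38.p6). Of the 10 genes, 9 had a window, in 11 windows, and Trp53inp1 had none. The consensus decamer is its own reverse complement, so 1 scan covers both strands. Of the 2 windows of Cdkn1a, the first (chr17:29090729-29091028, plus strand) matched the consensus at 20 of 20 positions. The match ran from -73 to -42, with a spacer of 12 bases. The second (chr17:29093519-29093818), which is not shown, matched at 15. Ccng1 (chr11:40755237-40755536, minus strand) matched at 19 positions with a spacer of 0, and Bax (chr7:45466849-45467148, minus strand) at 19 with a spacer of 1. The windows of the other genes matched at 16 to 18 positions. Of 32851 windows of all genes, 0.0731% held a full match and 1.09% a match at 19 or more positions. These are matches of letters, and binding was not tested. Only the best match of a window is marked: it is in capitals, spacer included.
Cdkn1a: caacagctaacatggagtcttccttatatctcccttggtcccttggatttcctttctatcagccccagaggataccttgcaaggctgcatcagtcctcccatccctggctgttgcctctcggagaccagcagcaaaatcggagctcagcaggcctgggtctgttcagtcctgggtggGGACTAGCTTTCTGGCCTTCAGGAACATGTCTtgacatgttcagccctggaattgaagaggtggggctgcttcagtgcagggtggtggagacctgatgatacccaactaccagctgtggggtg
Ccng1: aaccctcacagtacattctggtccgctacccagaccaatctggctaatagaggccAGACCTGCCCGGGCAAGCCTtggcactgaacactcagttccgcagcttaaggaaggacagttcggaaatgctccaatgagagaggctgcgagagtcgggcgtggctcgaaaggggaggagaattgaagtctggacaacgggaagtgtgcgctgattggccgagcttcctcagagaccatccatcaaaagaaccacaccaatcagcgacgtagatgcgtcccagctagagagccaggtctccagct
Bax: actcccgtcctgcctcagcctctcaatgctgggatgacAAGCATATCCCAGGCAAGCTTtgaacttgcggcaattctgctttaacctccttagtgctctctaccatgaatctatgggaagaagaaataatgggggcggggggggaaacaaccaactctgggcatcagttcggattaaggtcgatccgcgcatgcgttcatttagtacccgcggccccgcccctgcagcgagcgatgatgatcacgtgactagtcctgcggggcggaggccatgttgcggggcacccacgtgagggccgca
After injury the 3 genes went different ways over the sections, with Bax and Cdkn1a higher and Ccng1 lower at day 3.

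To ask whether the RNA of these genes lay with muscle fibres or with leukocytes, each section was split by its own spots. Leukocyte spots were those at or above the 0.75 quantile of the share of UMIs in 12 pan-leukocyte genes such as Ptprc and Tyrobp, myofibre spots were those at or above the 0.75 quantile for the adult myofibre list, and spots in both were left out. This gave 650 spots of each class at day 1 and 756 at day 3. At day 1 the leukocyte list stood at 4061 CPM in leukocyte spots and 722 in myofibre spots, and the adult myofibre list at 89900 and 230149. At day 3 the leukocyte list stood at 5432 and 857 CPM and the myofibre list at 22469 and 231545. Neither class was pure, since no gene of either list was at 0 in either class. Other lists moved with this contrast, and their part in the values was not tested. At day 1 leukocyte spots had 722 CPM of adipocyte genes against 49.3 in myofibre spots, 253 of Schwann cell genes against 42.8 and 443 of cell cycle genes against 121. At day 3 they had 1041 CPM of regenerating muscle genes against 142 (9 of 9 genes called), 1220.0 of cell cycle genes against 177 (16 of 16) and 6358 of mesenchymal stromal cell and fibroblast genes against 1829.7. Leukocyte spots were the shallower class at day 1, with 3445 UMIs a spot against 7831, and the deeper class at day 3, with 24458 against 10311.

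At day 1, Gadd45a, Cdkn1a, Bax and Mdm2 were at least 2-fold higher in leukocyte than in myofibre spots, 4 of the 7 genes with at least 50 UMIs over both classes. Of all features 43.2% were, so the count was not far from the background. None of the 7 was 2-fold lower, against 4.25% of features. Gadd45a was at 177 CPM in leukocyte spots and 30.6 in myofibre spots (5.77-fold, 4.78 to 6.99), the widest gap of the day. Cdkn1a was at 191 and 60.3 CPM (3.16-fold, 2.72 to 3.67), Bax at 134 and 51.7 (2.58-fold, 2.18 to 3.06) and Mdm2 at 71.0 and 27.7 (2.56-fold, 2.03 to 3.24). Btg2 was at 28.6 and 15.1 CPM (1.89-fold, 1.33 to 2.67), short of the call. Phlda3 and Ccng1 leaned to the fibres, at 295 against 396 CPM and 195 against 271 CPM. Sesn2, Gdf15 and Trp53inp1 had too few UMIs to be counted, at 26 and 17, 25 and 14, and 24 and 16.

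At day 3 the genes split apart. Of the 10, 5 were at least 2-fold higher in leukocyte spots (49.2% of features were, so the share is that of the background) and 2 at least 2-fold lower (7.56%). Gdf15 had 309 UMIs in leukocyte spots and 7 in myofibre spots, or 16.7 and 0.898 CPM (18.6-fold, 8.92 to 46.7). Sesn2 was at 13.4 and 2.18 CPM (6.13-fold, 3.75 to 10.7), Bax at 165 and 29.6 (5.58-fold, 4.88 to 6.40), Trp53inp1 at 14.5 and 4.88 (2.97-fold, 2.11 to 4.29) and Cdkn1a at 196 and 73.4 (2.67-fold, 2.44 to 2.92). With a total that also leaves out leukocyte genes, the calls of Cdkn1a (log2 ratio 0.82) and Trp53inp1 (0.98) at day 3 ended, as did those of Mdm2 (0.95) and Bax (0.96) at day 1, and Btg2 (-1.56) became a call on the fibre side at day 3. On the fibre side, Phlda3 was at 111 CPM in leukocyte spots and 325 in myofibre spots (0.341, interval 0.322 to 0.362) and Ccng1 at 101 and 239.6 (0.421, interval 0.394 to 0.449). Btg2 was at 49.9 and 97.2 CPM (0.513, interval 0.465 to 0.565), just short of the call and on the other side from day 1. Mdm2, at 48.7 and 30.1 CPM, was above 1 but under 2-fold, and the interval for Gadd45a (0.922, interval 0.825 to 1.03) included 1.

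**Figure D2:**
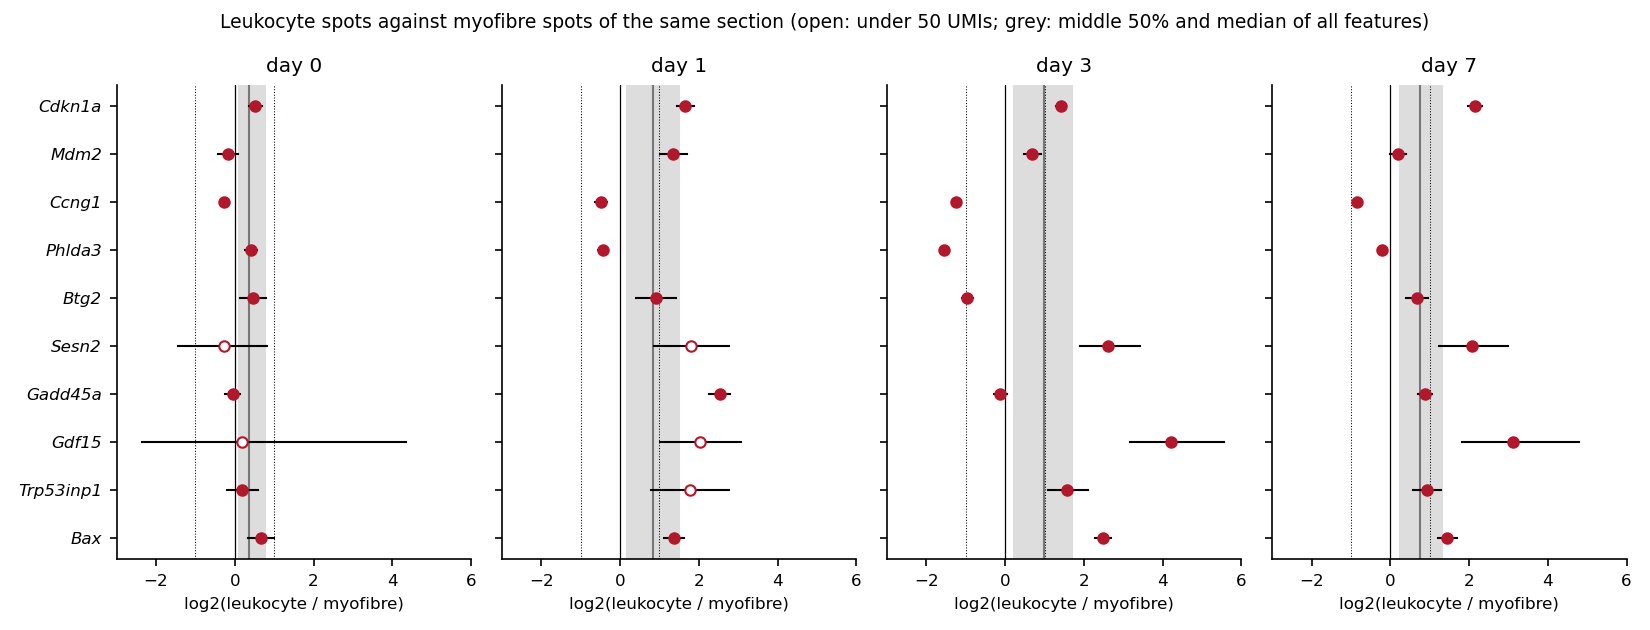
Log2 ratio of the level in leukocyte spots to that in myofibre spots (x axis) for each gene (y axis), a panel per day. Points right of 0 lie on the leukocyte side, open points had under 50 UMIs, lines are exact 95% counting intervals, dotted lines 2-fold, and the grey band and line the middle 50% and the median of all features. Bax and Cdkn1a lay above 0 on all 4 days and Ccng1 below 0, while Phlda3 and Btg2 changed sides with intervals clear of 0. Phlda3 was above 0 only at day 0, when leukocyte spots held 258894 CPM of adult myofibre genes.

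The other days give the frame for these values. At day 0, 0 of 8 genes with enough UMIs were called in either direction, beside 15.8% of features higher and 0.0862% lower, and the leukocyte list was at 350.0 CPM in the leukocyte spots of that section. At day 7, 4 of 10 were higher (37.4% of features) and 0 lower (1.62%): Cdkn1a (156 against 35.4 CPM), Gdf15 (58 against 5 UMIs), Sesn2 (78 against 14 UMIs) and Bax (59.8 against 21.9 CPM). The median log2 ratio of the genes counted was 0.30, 1.36, 1.05 and 0.91 from day 0 to day 7, and that of all features 0.36, 0.84, 0.98 and 0.75. Under other settings the median of the genes ran from 0.17 to 1.92 at day 1 and from 0.46 to 2.30 at day 3. Counted as UMIs per spot, which puts back the difference in depth, all log2 ratios moved by -1.18 at day 1 and by 1.25 at day 3. On that scale Btg2 went to -0.27 at day 1 and 0.28 at day 3, both on the other side of 0, and Gadd45a at day 1 was at a log2 ratio of 1.34, the only gene still called higher, while Ccng1 (-1.66) and Phlda3 (-1.61) were then called lower. At day 3 the calls of Phlda3, at -0.30, and of Ccng1 were lost on that scale, and Mdm2 (1.94) and Gadd45a (1.13) were called higher.

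By share of the section's RNA, leukocyte spots at day 3 held 33.0% of all UMIs but 75.2% of those of Gdf15, 59.98% of Bax, 57.7% of Sesn2, 50.3% of Trp53inp1, 42.9% of Mdm2 and 41.4% of Cdkn1a. They held 16.0% of the UMIs of Phlda3. At day 1 leukocyte spots had 13.3% and myofibre spots 30.3% of all UMIs. Gadd45a had 14.6% and 5.75% there, so that most of its RNA lay in spots of neither class, and Cdkn1a had 21.7% and 15.6%. Spots of neither class held 9314073 of the section's 16777832 UMIs, so most RNA of all features lay there too.

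Spots were also thinned to 2000 UMIs, which left out 300 leukocyte and 12 myofibre spots at day 1, so that shares of spots with a UMI could be compared. At day 1 Cdkn1a was seen in 32.2% of leukocyte and 11.9% of myofibre spots (38.3% and 34.5% before thinning), Gadd45a in 22.5% and 6.03%, and Bax in 22.3% and 9.68%. Phlda3 was seen in 38.9% and 51.6%. Before thinning Bax was in 28.9% of leukocyte and 33.1% of myofibre spots, in the reverse order, which is the order of the depths. At day 3 Gdf15 was seen in 3.30% and 0.173% of thinned spots and in 29.2% and 0.926% before.

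Leukocyte spots were then set against the spots of neither class, a comparison chosen after seeing the data. At day 1 Gadd45a was at 177 CPM in leukocyte spots and 232 in the spots of neither class (0.763, interval 0.684 to 0.850), so its highest level was in neither of the opposed classes. Bax (134 against 70.0 CPM, 1.91-fold), Cdkn1a (191 against 131, 1.45-fold) and Mdm2 (71.0 against 49.5, 1.43-fold) were on the leukocyte side with intervals above 1. Sesn2 had the widest gap there, 11.6 against 2.68 CPM (4.33-fold, 2.40 to 7.81), from 26 and 25 UMIs. At day 3 Gdf15 kept the widest gap, 16.7 against 3.19 CPM (5.24-fold, 4.15 to 6.67), followed by Bax (2.73-fold) and Sesn2 (2.43-fold). Trp53inp1 (1.90-fold), Mdm2 (1.51-fold) and Cdkn1a, at 196 against 153 CPM (1.28-fold), were also higher. On the other side, Phlda3 (0.403), Ccng1 (0.586), Btg2 (0.604) and Gadd45a (0.816) had intervals below 1 at day 3. The share over all features was not computed for this comparison.

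**Figure D3:**
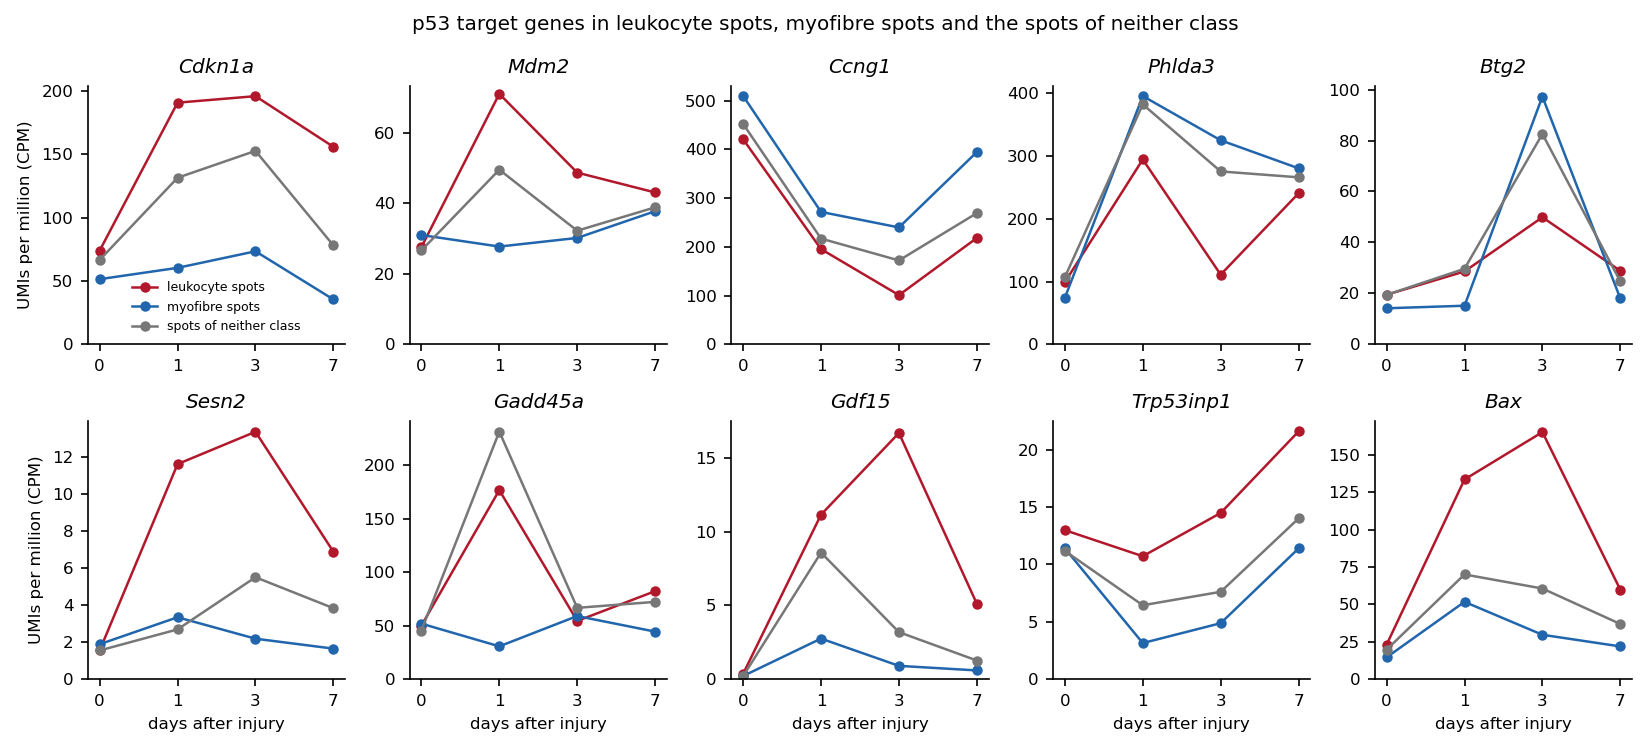
Level of each gene (y axis, UMIs per 1000000, linear from 0, a scale of its own in each panel) in leukocyte spots, myofibre spots and spots of neither class at days 0, 1, 3 and 7 (x axis, days evenly spaced). Each point is 1 class of 1 section. Gadd45a at day 1 was highest in spots of neither class, at 232 CPM, and Gdf15 and Bax at day 3 were highest in leukocyte spots.

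Cut into 10 equal bins by leukocyte share (bin 10 the highest), the day 3 section showed graded levels for the genes at the ends of the list. Bax went from 29.4 CPM in bin 1 to 196 in bin 10, Gdf15 from 0.832 to 20.1, and Phlda3 in the other direction, from 333 to 83.1. Cdkn1a did not follow the gradient to its end, with 71.5 CPM in bin 1, 222 in bin 8 and 178 in bin 10. Gadd45a peaked in bin 7, at 81.5 CPM, and was at 38.3 in bin 10. At day 1 Bax went from 29.3 to 193 CPM, Cdkn1a from 57.9 to 223 and Mdm2 from 35.9 to 101, while Gadd45a was at 118, 202 and 128 CPM in bins 1, 4 and 10. By adult myofibre share its day 1 level was 94.9 CPM in bin 1, 350.5 in bin 4 and 22.1 in bin 10.

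**Figure D4:**
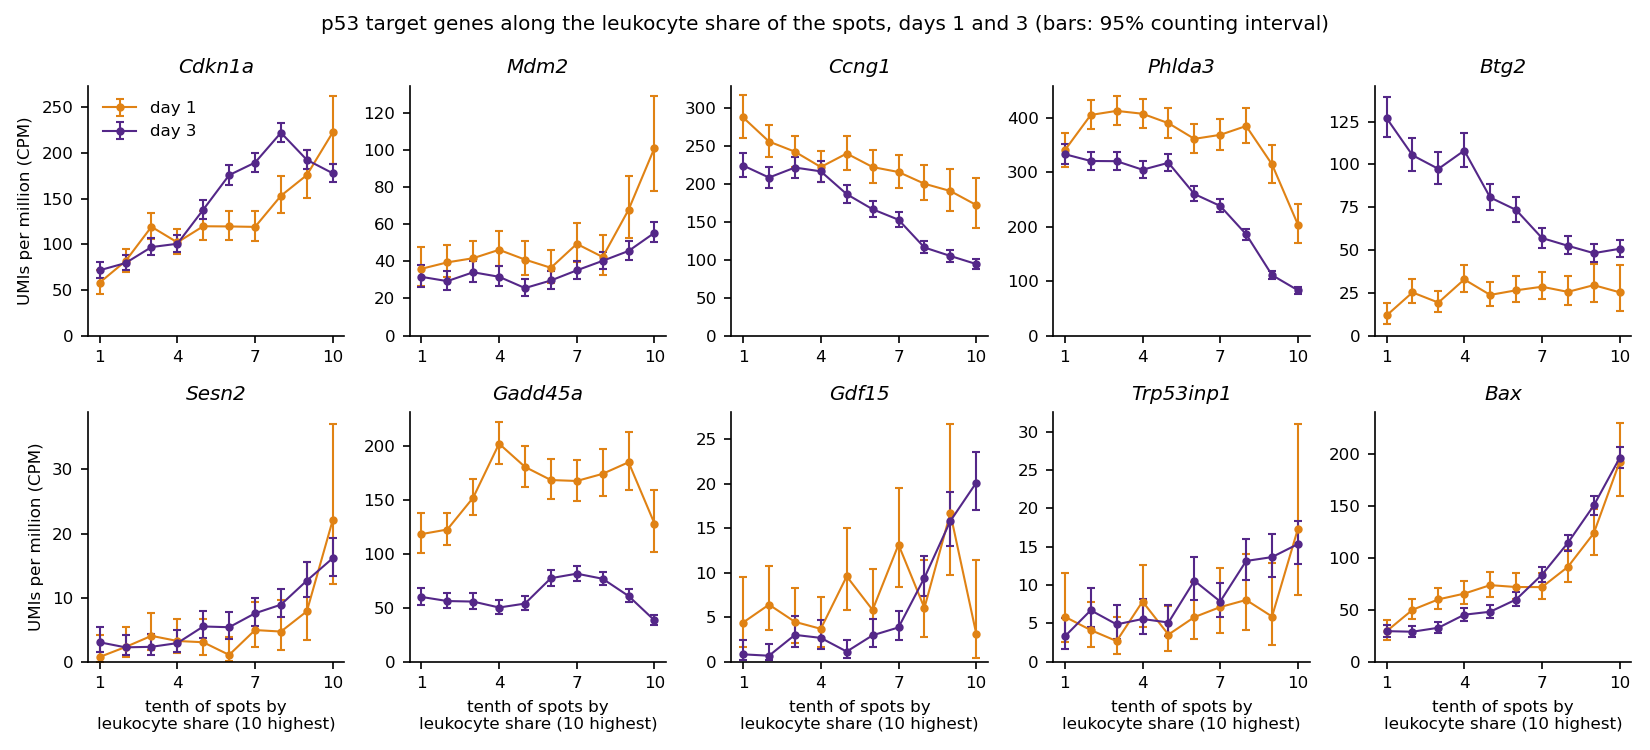
Level of each gene (y axis, UMIs per 1000000) in 10 bins of the spots of the day 1 and day 3 sections, ordered from the lowest to the highest share of leukocyte UMIs (x axis), with exact 95% Poisson intervals. Bax was higher toward the right on both days (29.4 to 196 CPM at day 3), Phlda3 lower toward the right at day 3, and Gadd45a highest at day 1 in bin 4.

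The myofibre spots were followed through time to see what changed in spots led by fibre RNA. Phlda3 had levels of 74.2, 396, 325 and 281 CPM in the myofibre spots of days 0, 1, 3 and 7, and was past 2-fold on all 3 days (5.34-fold at day 1, 4.90 to 5.82). Btg2 was at 14.1, 15.1, 97.2 and 18.0 CPM, past 2-fold only at day 3 (6.89-fold, 5.73 to 8.33). Bax was at 14.5, 51.7, 29.6 and 21.9 CPM and was called at days 1 and 3. The day 3 call (log2 ratio 1.03) was lost under TMM factors (0.76) and under the total that leaves out myofibre, mitochondrial and haemoglobin genes (0.85). Cdkn1a, at 51.4, 60.3, 73.4 and 35.4 CPM, and Mdm2, at 31.0, 27.7, 30.1 and 37.7 CPM, were not called on any day. Trp53inp1 was at 11.4, 3.14, 4.88 and 11.4 CPM, called lower at days 1 and 3, and Ccng1 was called lower at day 3 (509 CPM at day 0 against 239.6). Gadd45a had 0.591 of its day 0 level at day 1 (0.490 to 0.708), where the whole section had 3.35 times.

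Of the 8 genes with enough UMIs there, 2, 3 and 1 were at least 2-fold higher at days 1, 3 and 7 and 1, 2 and 0 at least 2-fold lower. The background was 8.9%, 13.1% and 12.3% higher and 10.1%, 2.96% and 0.788% lower. The median log2 ratios were -0.03, 0.35 and 0.14, and those of all features -0.03, 0.26 and 0.36. The leukocyte list in the myofibre spots stood at 64.4, 722, 857 and 285 CPM on the 4 days, and its part in these ratios was not tested. The slow myofibre list, whose part was likewise not tested, stood at 59.5, 899, 102 and 241 CPM in them, with 6 of its 6 genes called higher at day 1. At day 0 Phlda3 was itself at 157 CPM in the 10% of spots highest in that list and at 89.2 in the rest, a comparison added after seeing the data, and at days 1, 3 and 7 it was at 329.7 against 382, 252 against 225, and 254 against 264. TMM factors moved the log2 ratios of this comparison by -0.01, -0.27 and -0.39.

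Regions of each section, 30 in all, were found by clustering without these genes or any listed gene, and are named by their leading genes. At day 1 the highest level of Gadd45a, 433 CPM, was in a region led by Sox9, Cited4 and Dusp5, which also had the highest Cdkn1a (268 CPM) of the section. A region led by Myog, Tnfrsf23 and Nes had 359.9 CPM of Gadd45a, and one led by Angptl7, Fmod and Mss51 the lowest, 24.2 CPM. Mdm2 (92.4 CPM) and Bax (150.4 CPM) were highest in the region led by Spp1, Thbs1 and Ppbp, which had the most leukocyte RNA (4169 CPM) and a median of only 1273 UMIs a spot. Sesn2 (17.2 CPM) and Trp53inp1 (18.5 CPM) were highest in a region led by Slc7a10, Pck1 and Arxes2, from 13 and 14 UMIs. Their intervals there overlapped those of the region led by Spp1, at 10.9 and 9.24 CPM.

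At day 3, Gdf15 (21.0 CPM), Bax (173 CPM), Mdm2 (55.7 CPM) and Trp53inp1 (15.9 CPM) were highest in the region led by Spp1, Rsad2 and Adam8, with the most leukocyte RNA of that section (5537 CPM). Cdkn1a was highest, at 226 CPM, in a region led by Thbs2, Cthrc1 and Aspn, which was also rich in leukocyte RNA (4809 CPM). It was at 201 CPM in one led by Myh7, Sln and Tnnc1. In the region led by Spp1 it was at 197 CPM (188 to 206), an interval that includes 201. Btg2 (122 CPM) was highest in a region led by Rcan1, Myl3 and Prkg1, Phlda3 (373 CPM) in one led by Myh2, Csrp3 and Slc38a3, and Ccng1 (240.3 CPM) in one led by Ddit4l, Amd1 and Mettl21c. At day 7, Cdkn1a (236 CPM) and Gadd45a (134.5 CPM) were highest in a region led by Gpnmb and the embryonic and neonatal myosins Myh3 and Myh8, which also had the most leukocyte RNA of that section (1257 CPM). Bax (82.6 CPM), Trp53inp1 (32.7 CPM), Sesn2 (7.49 CPM) and Mdm2 (51.7 CPM) were highest in a region led by the cartilage collagens Col10a1, Col9a1 and Col2a1. The interval of Sesn2, from 30 UMIs, overlapped that of a region led by Cyp2e1, Cfd and Nnat (6.14 CPM). That of Mdm2 overlapped the region led by Gpnmb (46.8 CPM).

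**Figure D5:**
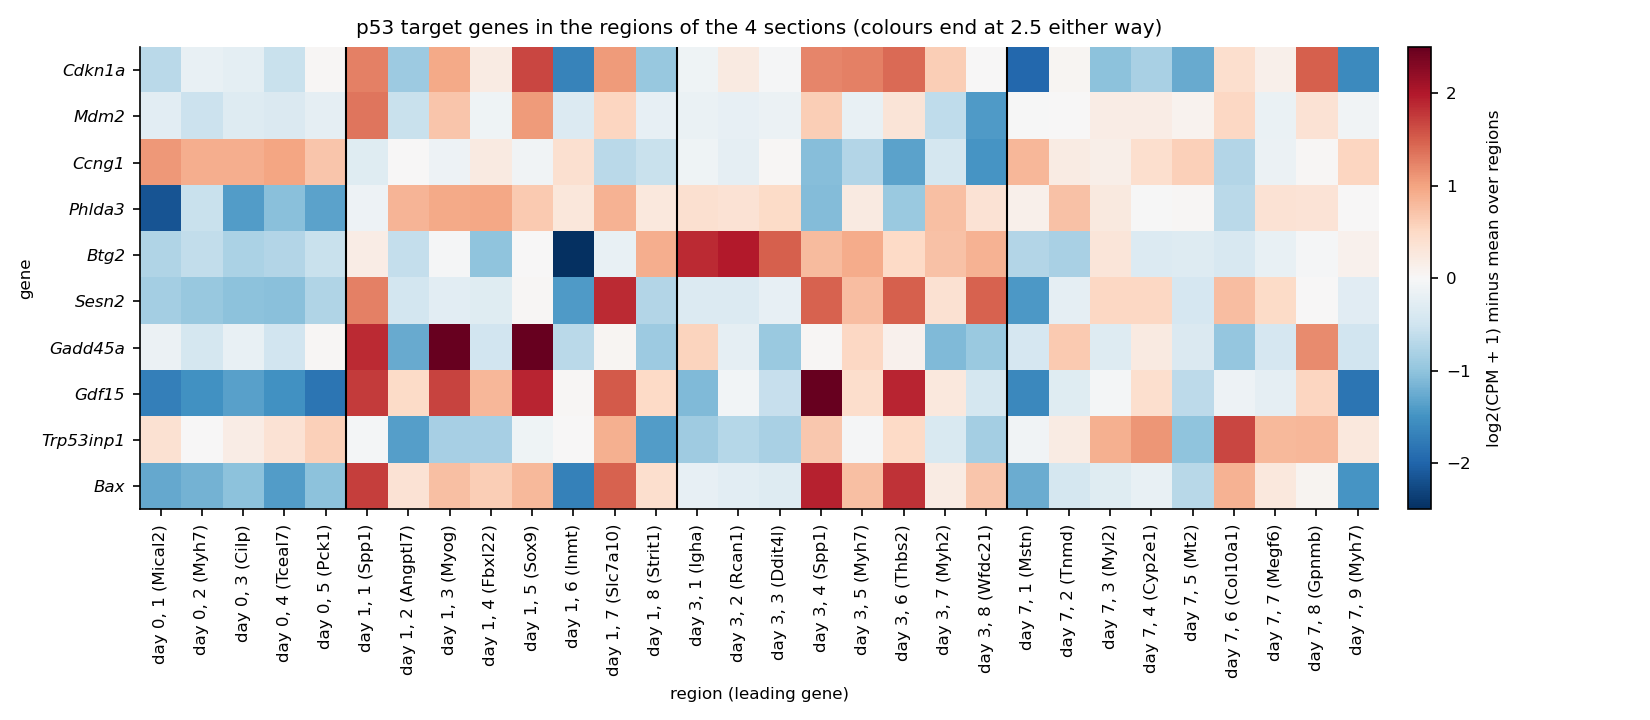
Level of each gene in the regions of the 4 sections, coloured by log2(CPM + 1) minus the gene's mean over the 30 regions, with regions and their leading gene on the x axis and genes on the y axis; colours end at 2.5 either way. Gadd45a stands out in the day 1 regions led by Sox9 and by Myog. Gdf15 and Bax were highest in the day 3 region led by Spp1. In the day 3 region led by Thbs2, Gdf15 was at 12.3 CPM and Bax at 159. Day 1 regions came close, with Gdf15 at 12.3 CPM in the one led by Sox9 and Bax at 150 in the one led by Spp1.

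Across the 30 regions, which share 4 sections and differ in depth, Pearson's r of log2 levels with the leukocyte list was 0.90 for Bax, 0.82 for Sesn2, 0.81 for Gdf15, 0.65 for Cdkn1a and -0.88 for Ccng1. For Btg2 it was 0.55, for Phlda3 0.41, for Mdm2 0.35, for Gadd45a 0.23 and for Trp53inp1 -0.10. At day 3 Btg2 and Phlda3 were nonetheless lower in leukocyte than in myofibre spots. Regions of all 4 days were pooled, so r mixes differences between days with differences within a section. Trp53inp1 was closest to the list of mesenchymal stromal cells and fibroblasts, at 0.67. Several genes followed another list as closely or more: r with the cell cycle list was 0.75 for Cdkn1a, 0.84 for Sesn2 and 0.89 for Bax, and r with the neutrophil list was 0.86 for Gdf15 and 0.57 for Mdm2. Of 5469 candidate genes, the 5 most like Cdkn1a were Snrpc, Cct3, Spcs1, Ube2l3 and Eif3g (r from 0.87 to 0.85), those most like Mdm2 were Pak1ip1, Gtf2a1, Eif2a, Ube2k and Ddx46 (0.89 to 0.85), and those most like Gdf15 were Ube2a, Llph, Lpxn, Txndc17 and Btf3 (0.92 to 0.90).

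Cdkn1a and Gadd45a were also set against marker lists for other cells, comparing the 10% of spots highest in each list with the rest of the section. This comparison was chosen after seeing the data, and the share over all features was not computed for it. In the spots richest in regenerating muscle genes, Cdkn1a was at 238 CPM against 57.5 at day 7 (log2 ratio 2.05) and at 280.0 against 132 at day 3 (1.08). Gadd45a was at 137 against 53.7 CPM in the same day 7 spots, a log2 ratio of 1.35. Regenerating muscle genes themselves lay with leukocyte RNA at day 7, at 1959.6 CPM in leukocyte and 411 CPM in myofibre spots. In the spots richest in the satellite cell list at day 1, where Myod1 was its most abundant gene, Gadd45a was at 296 CPM against 147 (1.01). The same gene was at 309 against 152 CPM (1.03) in the spots highest in cell cycle genes, at 254 against 151 (0.75) for regenerating muscle genes and at 235 against 153 (0.62) for chondrogenic genes. The spots richest in adipocyte genes at day 1 had 21.1 CPM of Sesn2 against 3.14 and 23.4 CPM of Trp53inp1 against 5.02, from 18 and 20 UMIs. The spots richest in leukocyte genes were close to that, with 22.1 CPM of Sesn2 against 3.34 and 17.4 CPM of Trp53inp1 against 5.51, from 14 and 11 UMIs.

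Upstream of these genes, Trp53 itself was at 16.1, 23.9, 42.0 and 25.4 CPM at days 0, 1, 3 and 7, and was past 2-fold only at day 3 (log2 ratio 1.39), which the TMM shift of -0.55 takes under 2-fold. At day 3 it stood at 61.2 CPM in leukocyte and 25.02 CPM in myofibre spots. Its other negative regulator, Mdm4, was at 17.1, 13.4, 21.3 and 31.9 CPM. Of 11 regulators of p53, 1 of 8 with enough UMIs was higher at day 1, 4 of 10 at day 3 and 2 of 10 at day 7, and 0 were lower. Of all features 15.8%, 31.9% and 29.3% were higher, so these shares were near the background or under it. The largest ratio was that of Chek1 at day 1 (log2 1.22) and of Cdkn2a, which encodes p16 and p19ARF, at days 3 and 7, with 4, 1, 115 and 140 UMIs over the 4 days. Chek2 at day 1 (-0.94) and Trp63 at day 3 (-0.64) had the smallest.

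Other p53 targets, a list of 29 genes, had more genes higher than lower, as all features did. At day 1, 10 of 26 with enough UMIs were at least 2-fold higher and 0 lower, at day 3 16 of 29 and 0, and at day 7 17 of 29 and 0, with median log2 ratios of 0.69, 1.43 and 1.06, beside 0.16, 0.57 and 0.63 over all features and shares of 15.8%, 31.9% and 29.3% higher. The largest ratios were those of Cgref1 at day 1 (2.67 CPM at day 0 and 43.0 at day 1) and of Pmaip1, a BH3-only death gene, at day 3 (6 UMIs at day 0 and 271 at day 3). Between leukocyte and myofibre spots, 12 of 19 were higher and 1 lower at day 1, and 17 of 28 were higher and 1 lower at day 3, beside 43.2% and 49.2% of all features higher. Tigar, a brake on glycolysis, was the gene on the fibre side, at 13.1 CPM in leukocyte and 69.8 CPM in myofibre spots at day 3. It had the smallest ratio to day 0 of the list at day 3 (log2 -0.82). Eda2r, a receptor of the TNF family named after its values were seen, was at 3.10, 39.0, 19.03 and 15.1 CPM at days 0, 1, 3 and 7.

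Families close to the 10 genes differed among themselves, and their counts stand beside 15.8% of all features higher and 10.4% lower at day 1 and 31.9% and 6.77% at day 3. Of 6 other inhibitors of cyclin-dependent kinases, 0 of 5 with enough UMIs were higher and 2 lower at day 1, led by Cdkn1c (log2 -2.89). At day 3, 2 of 6 were higher and 1 lower. Among 10 paralogues, Btg1 had the largest ratio on each injured day (log2 1.41, 2.31 and 1.86), and Sesn3 at day 1 (-1.68), Trp53inp2 at day 3 (-1.16) and Gadd45g at day 7 (-1.49) the smallest. Of 11 genes of the integrated stress response, whose known targets include Gdf15 and Sesn2, 6 were higher and 1 lower at day 1, with Atf3 at a log2 ratio of 2.38 and Ddit4 at -3.24. Of 12 immediate early genes, 8 were higher and 1 lower at day 1 and 9 and 1 at day 3. Fosl1 had 2, 372 and 1126 UMIs on days 0, 1 and 3, and Nr4a1 was the gene called lower at day 1, at -1.94.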

How the data were processed

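The authors deposited whole-number UMI counts per gene and spot for 4 sections. The submitters' processing notes name Space Ranger and mm10, and the file headers name spaceranger 1.2.0. Every deposited spot was used, and spots of any depth were kept. Spot positions, images and the single-cell data were not used here, and no doublets were called because a spot holds several cells.

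Counts were summed per section, class or region and scaled to UMIs per 1000000. Poisson, conditional binomial and Clopper-Pearson intervals were exact at 95%. Ratios were formed for features with at least 50 UMIs over both groups, and a group with fewer than 3 UMIs was entered at 3. Levels were not corrected for gene length and are compared within a gene. Regions were Leiden clusters of each section (2000 variable genes, 30 components, 15 neighbours, resolution 0.5, seed 1). Thinning to 2000 UMIs used 20 draws. The genes and lists were chosen with earlier results of these data known. Named genes outside the 10 were, per list, those with the largest and smallest ratio to day 0 each injured day, Trp53 and Mdm4, and the 5 genes most like Cdkn1a, Mdm2 and Gdf15 over regions. Ddit3, with 2 feature entries, was left out. The ratios were tested on simulated data of the same depths. Tools were SciPy 1.17.1, matplotlib 3.10.9, pandas 2.3.3, leidenalg 0.10.2, Scanpy 1.11.5, NumPy 2.4.6, scikit-learn 1.9.0, Python 3.11.15, R 4.3.3, DESeq2 1.42.0 (size factors) and, for TMM factors, edgeR 4.0.16. The closing section gives the effect of other scalings, filters, folds, lists and class limits.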

Additional observations from a re-analysis of the deposited data

Results flagged for a closer look

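In 2 genes the log2 ratio of leukocyte to myofibre spots was on opposite sides of 0 in a pair of sections with the counting intervals of both clear of 0. Mdm2, Gadd45a and Sesn2 also changed sign, but each of their values below 0 had an interval that included 0. With 1 section a day the difference between days was not tested. For Phlda3 the ratio was 0.42 at day 0 and -0.43 at day 1 (a difference of -0.84), -1.55 at day 3 (-1.97) and -0.22 at day 7 (-0.64). Each of these differences rests on day 0, when leukocyte spots held 350 CPM of leukocyte genes and 258894 of adult myofibre genes. Slow myofibre genes stood at 572 CPM in those spots and 59.5 in the myofibre spots of day 0, and their part was not tested. For Btg2 it was 0.46, 0.92, -0.96 and 0.68 on days 0, 1, 3 and 7, so that day 3 differed from day 0 by -1.42 and from day 1 by -1.88, and day 7 from day 3 by 1.65. Counted as UMIs per spot, Btg2 stood at -0.27 at day 1 and 0.28 at day 3, in the opposite order.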

How the results depend on the processing

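No paired analysis was possible because each day had 1 section. Of the counts of called genes recomputed under another setting, 129 stayed within 1.5 times the reported count and 33 did not. Of the log2 ratios of single genes, 563 stayed within their counting interval and 247 did not. Over whole sections, the count lower at day 1 went from 0 to 2 under TMM factors, DESeq2 factors and a total that leaves out myofibre, mitochondrial and haemoglobin genes, and at a fold of 1.5. At day 7 the count higher went from 4 to 1 under TMM and DESeq2 factors, and the count lower from 0 to 1 under the same 4 settings. Between leukocyte and myofibre spots at day 1, the count higher went from 4 to 2 with a total that also leaves out leukocyte genes, 1 by UMIs per spot and 7 with features of at least 1 UMI. The count lower there went from 0 to 1 with the highest 10% of spots, 2 by UMIs per spot and 1 with Leiden regions. At day 3 the count lower went from 2 to 0 with thresholds over all sections, 1 with the neutrophil list and 0 by UMIs per spot, and the count higher from 5 to 3 with the total without listed genes. In myofibre spots against day 0, the count lower at day 1 went from 1 to 2 with the highest 10%, with thresholds over all sections and with the total without listed genes, and to 3 at a fold of 1.5. At day 3 it went from 2 to 1 with thresholds over all sections, and at day 7 the count higher went from 1 to 2 at a fold of 1.5. The cause of these moves was not tested. Thresholds over all sections at day 0 and the neutrophil list at days 0 and 7 gave no value, since a class had under 20 spots. Of the medians over the genes, 47 stayed within 0.1 and 34 moved further. Against day 0 the median of whole sections at day 7 went from 0.52 to as low as -0.12. Depth limits the comparison of classes for Gdf15 and Sesn2 at days 0 and 1 and for Trp53inp1 at day 1, where each had under 50 UMIs over both classes.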
